A study of Mus musculus with 8 samples.

Results

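Clusters 1 and 2 of the authors' annotation of embryonic mouse cortex nuclei, both placed by the authors in their group 1, were compared with each other in wildtype. The members are the nuclei of the 4 wildtype samples that carry these cluster numbers: 12974 nuclei, 7249 in cluster 1 and 5725 in cluster 2, of 33781 wildtype nuclei and 67319 nuclei in all. The series profiled single nuclei from the dorsal telencephalon, the part of the embryonic forebrain that forms the cortex, of C57BL/6J mice at E15.5, the age in embryonic days. It has 4 wildtype samples and 4 samples of Pantr2 knockout mice (Pantr2-/-), which share strain, age and tissue, and no agent is named in the labels. The knockout allele, the sex and the number of embryos behind a sample are not given in the labels, so p-values measure the spread between samples, which may be technical. Unique molecular identifiers (UMIs, one for each captured RNA molecule) were summed per sample and cluster, so that each sample gave 1 sum for cluster 1 and 1 for cluster 2. Levels are CPM, UMIs of a gene scaled to a common total of each sum, scaled by edgeR's trimmed-mean factors unless said otherwise, and a fold change is cluster 1 over cluster 2 on the log2 scale.

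Projection neurons of the cortex divide by where their axons go. Callosal neurons cross to the other hemisphere through the corpus callosum and are most frequent in the upper layers. Subcerebral neurons of layer 5, specified by Fezf2 and its downstream factor Bcl11b (also called Ctip2), send axons to the brainstem and spinal cord. Corticothalamic neurons of layer 6, which use Tbr1, Tle4 and Foxp2, project to the thalamus.

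The clusters were drawn by the authors from the expression of these same nuclei. Differences between them are therefore given as a description, and an adjusted p says only how repeatable a difference was over the 4 samples. Cluster 1 held 41.6% of the nuclei of the 2 clusters in wildtype sample 1 (exact 95% binomial interval 39.8 to 43.4, which covers counting error only), 61.3% in sample 2, 55.1% in sample 3 and 62.9% in sample 4. Sample 1 thus had the smallest share of cluster 1. Sums held 2914277 to 5726390 UMIs. Nuclei of cluster 1 were shallower in all 4 samples, with median UMIs of 2245 to 2425 against 2800.5 to 3053 in cluster 2 (exact two-sided sign-flip test over the 4 pairs, p = 0.125, the smallest this design allows). The mitochondrial share of UMIs was 1.76 to 2.15% in cluster 1 and 1.57 to 2.21% in cluster 2. The authors' doublet score had medians of 0.0620 to 0.169 and 0.0699 to 0.175. Between 8 and 30 nucleus barcodes were shared by any pair of the 8 libraries.

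Of 12171 genes tested, 3881 differed between the clusters at an adjusted p under 0.05 by edgeR's quasi-likelihood test with each sample as its own block, or 31.9% (14.9% higher in cluster 1 and 17.0% higher in cluster 2). Nothing is read from these counts, since the clusters were made from the same data. Counts of called genes in the lists below are to be set against these shares of all genes. The values of the clusters did not overlap for 3116 of the 12171 genes (25.6%), so a lack of overlap does not by itself set a gene apart. The median fold change over all genes was 0.011.

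The callosal list had 27 genes, of which 22 were tested. Cluster 1 was higher in 9 and cluster 2 in 6, and 7 did not pass, with a list median of 0.05. The homeodomain factor Cux2, a marker of upper-layer neurons, stood at 666, 718, 683 and 857 CPM in cluster 1 of samples 1 to 4 and at 166, 105, 107 and 139 CPM in cluster 2. Every cluster 1 value was above every cluster 2 value, and the fold change was 2.50 ± 0.17 (SE, adjusted p = 0.00155). Its relative Cux1 was at 582, 604, 649.7 and 721 CPM against 192, 109, 97.5 and 141 CPM, also without overlap (2.27 ± 0.24, adjusted p = 0.00746). Without sample 2 or sample 4 the fold change of Cux1 was 2.21 or 2.24 and its adjusted p 0.0540 or 0.0566.

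The ephrin receptor Epha3 was at 2149 to 2254 CPM in cluster 1 and at 998, 565, 588 and 746 CPM in cluster 2 (1.64 ± 0.19, adjusted p = 0.00955). Without sample 3 or sample 4 its adjusted p was 0.0505 or 0.0579 at a fold change of 1.56 or 1.66. Smaller differences in the same direction were seen for the LIM homeodomain factor Lhx2 (0.75 ± 0.05), the POU factors Pou3f2 (0.54 ± 0.05) and Pou3f1 (0.42 ± 0.07), the growth factor Ptn (0.49 ± 0.05), the corepressor Tle3 (0.54 ± 0.12) and the transcriptional coregulator Cited2 (0.52 ± 0.09). Tle3 did not pass after thinning to equal depth and nuclei (0.37, adjusted p = 0.121). Not all of these genes peaked in cluster 1. Without scaling between clusters, Epha3 was at 2299 ± 81.4 CPM (SD, n = 4) in cluster 1 and 2864 ± 81.3 CPM in cluster 5. Ptn was at 814 ± 186 CPM and, in cluster 4, 2055 ± 114 CPM. Lhx2 was at 162 ± 11.5 CPM and, in cluster 5, 236 ± 14.7 CPM. Pou3f1 and Pou3f2 had their highest mean in cluster 1, and Tle3 and Cited2 had close means in clusters 4 and 5.

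Several genes of the callosal list were higher in cluster 2. The orphan nuclear receptor Rorb, best known from layer 4, stood at 139.8, 141, 93.4 and 128 CPM in cluster 1 and at 776, 929.8, 532 and 744 CPM in cluster 2 (-2.56 ± 0.05). The activity-regulated factor Mef2c was at 294 to 452 CPM against 1031 to 1376 CPM (-1.62 ± 0.07). The Rac regulator Chn2 (-0.86 ± 0.05), the semaphorin receptor Plxnd1 (-0.81 ± 0.28), the corepressor Ski (-0.32 ± 0.06) and the adhesion protein Nectin3 (-0.27 ± 0.07) followed in the same direction. Nectin3 did not pass after thinning to equal depth and nuclei, in nuclei with low doublet scores, in DESeq2 or without the sample block (adjusted p from 0.120 to 0.429). Plxnd1 did not pass after the same thinning (-1.07, adjusted p = 0.0656), without sample 1 (-0.61, adjusted p = 0.111) or sample 3 (-0.59, adjusted p = 0.183). The netrin receptor Unc5c was at 109, 67.7, 134 and 103 CPM in cluster 1 and at 199, 77.9, 112 and 204 CPM in cluster 2. These values overlapped, and the difference of -0.48 ± 0.29 did not pass (adjusted p = 0.335). Lmo4, Btg1, Bhlhe22, Dkk3, Gfra2 and Lamp5 did not pass either, with fold changes from -0.67 to 0.28. Of these, Dkk3, Gfra2 and Lmo4 passed in 1 or more of the fits with a sample left out (Dkk3 without sample 2 or 3, adjusted p from 0.0295 to 0.0355; Gfra2 without sample 1, 0.0226; Lmo4 without sample 2, 0.0347).

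The subcerebral list had 26 genes, of which 22 were tested. Cluster 2 was higher in 15 and cluster 1 in 3, and 4 did not pass, with a median of -1.06. The zinc finger factor Bcl11b stood at 423, 509, 411 and 440.5 CPM in cluster 1 and at 799.9, 1147, 1127 and 946 CPM in cluster 2. All cluster 2 values were higher, by -1.16 ± 0.08. Fezf2 was at 47.0, 41.1, 57.3 and 39.1 CPM against 124, 137, 182 and 127 CPM, again without overlap (-1.64 ± 0.06). The LIM cofactor Ldb2 was at 295 to 355 CPM against 1460.3 to 1644 CPM (-2.29 ± 0.05).

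Sox5, which controls the timing and identity of deep-layer neurons, was at 1169 to 1542 CPM in cluster 1 and 4541 to 5619 CPM in cluster 2 (-1.89 ± 0.06). The natriuretic peptide clearance receptor Npr3 had the largest fold change of the list. It was at 0.973, 0.374, 0.865 and 0.666 CPM in cluster 1 and at 21.8, 18.8, 33.3 and 27.3 CPM in cluster 2 (-5.16 ± 0.22). Tcerg1l was at 0.561 to 1.998 CPM against 25.7, 27.6, 7.54 and 35.7 CPM, with the lowest cluster 2 value in sample 3 (-4.10 ± 0.25). The membrane-anchored netrin-G1 gene Ntng1 (-2.60 ± 0.13), the ephrin receptor Ephb1 (-2.59 ± 0.07), the cadherin Cdh13 (-2.06 ± 0.04), the adaptor Grb14 (-1.23 ± 0.13), the mitochondrial protease Oma1 (-1.22 ± 0.06), the formin Diaph3 (-0.95 ± 0.08), Lix1 (-0.38 ± 0.05), S100a10 (-0.35 ± 0.10) and the ETS factor Etv1 (-0.55 ± 0.21) were also higher in cluster 2.

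The call of Etv1, a gene of layer 5 neurons, was lost without sample 2, 3 or 4 (adjusted p from 0.0583 to 0.479), and that of S100a10 without sample 2 (0.0663). Neither passed after thinning to equal depth and nuclei, at low doublet scores, in DESeq2 or without the sample block (adjusted p from 0.0529 to 0.517). Crym, Cntn6, Pcp4 and Parm1 did not pass. Crym passed without sample 4 (-0.42, adjusted p = 0.0370) and Pcp4 without sample 2 (0.32, adjusted p = 0.0253). Bcl6, a transcriptional repressor, Igfbp4, an insulin-like growth factor binding protein, and Crim1, a membrane protein used as a corticospinal marker, went the other way. Their fold changes were 0.70 ± 0.08, 0.95 ± 0.18 and 0.42 ± 0.06, so cluster 1 was the higher one.

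**Figure D1:**
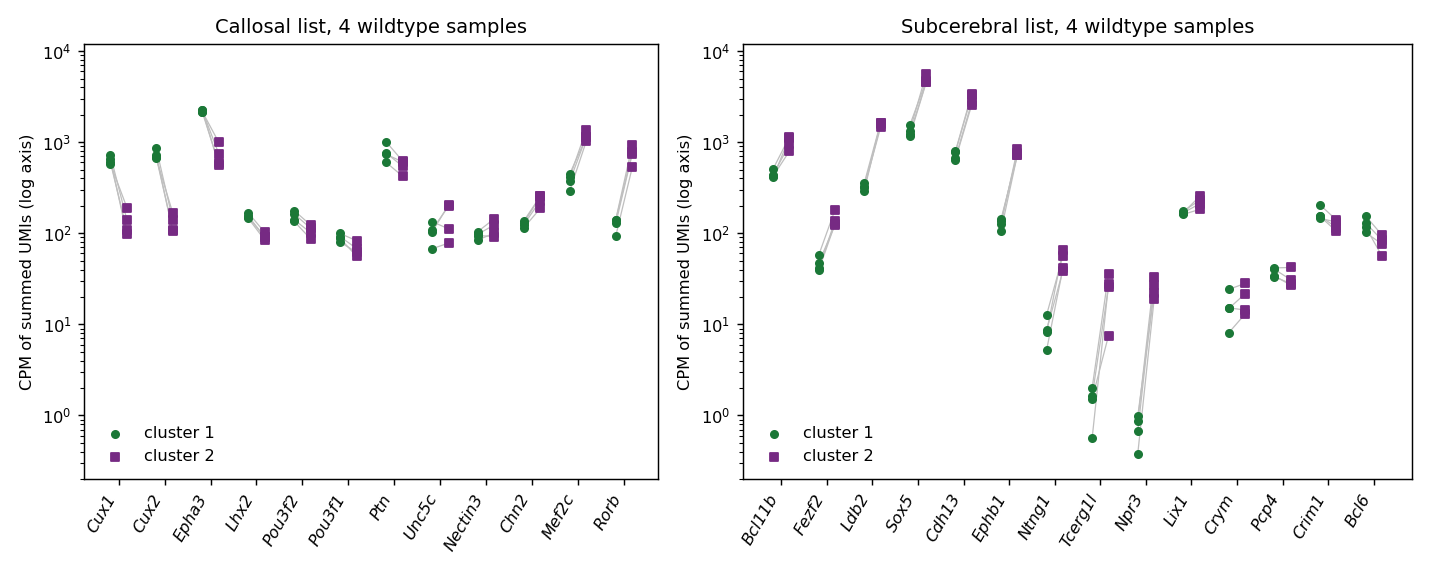
CPM of summed UMIs (log axis) of 12 callosal and 14 subcerebral genes in each of the 4 wildtype samples, cluster 1 as circles and cluster 2 as squares, with a grey line joining the sums of 1 sample. Cux1 and Cux2 stood higher in cluster 1 and Ldb2, Sox5 and Npr3 higher in cluster 2 in all 4 samples, Rorb and Mef2c of the callosal list lay higher in cluster 2, and Unc5c overlapped.

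Cluster 2 was not only higher in subcerebral genes. Of 9 corticothalamic genes tested, 8 were higher in cluster 2 and the remaining gene, Tbr1, did not pass, with a median of -2.09. The heparan sulfate 3-O-sulfotransferase gene Hs3st4 was at 31.6 to 35.02 CPM in cluster 1 and at 534, 717, 699 and 584 CPM in cluster 2 (-4.27 ± 0.07). The cofactor Zfpm2 (-2.98 ± 0.24), the melanocortin receptor Mc4r (-2.67 ± 0.24), Foxp2 (-2.09 ± 0.11) and the corepressor Tle4 (-1.61 ± 0.06) were higher in cluster 2 too. Tbr1 was at 44.3 to 55.4 CPM against 52.6 to 62.7 CPM and did not pass (-0.20 ± 0.08, adjusted p = 0.0662).

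The level of Hs3st4 in cluster 2 was far below that in cluster 3 of the same samples. Without scaling between clusters, it was 605 ± 82.7 CPM (SD, n = 4) in cluster 2 and 4022 ± 251 CPM in cluster 3. Zfpm2 was at 643 ± 124 CPM and 2258 ± 117 CPM. Subcerebral genes did not set cluster 2 apart from cluster 3 as a list. Their summed level was 10628 to 12882 CPM in cluster 2 and 11873 to 12560 CPM in cluster 3, ranges that overlapped. That sum came mostly from Sox5 and Cdh13, so it says little about the less abundant members. Of the 22 named members, 11 had the higher mean in cluster 3. Among these were Npr3 (24.2 ± 5.82 CPM in cluster 2 and 40.6 ± 7.46 CPM in cluster 3), Ephb1 (728 ± 43.3 and 1231 ± 54.8 CPM), Cdh13 (2876 ± 360 and 3745 ± 172 CPM), Grb14 (22.7 ± 3.98 and 55.2 ± 3.92 CPM) and Sox5, whose 4653 ± 423 and 5004 ± 161 CPM did not differ beyond their spread. Ldb2 had the opposite order, with 1509.8 ± 77.8 CPM in cluster 2 and 535 ± 32.5 CPM in cluster 3, and Fezf2 was at 136 ± 23.8 CPM and 89.6 ± 7.20 CPM. The label of cluster 1 as callosal-type rests on Cux1 and Cux2, both at their highest mean of the 7 clusters there (667 ± 62.8 and 763 ± 94.5 CPM, n = 4), although Cux2 in cluster 5 was close at 607 ± 113 CPM and Cux1 was also high in cluster 4, at 452 ± 12.9 CPM. Cluster 2 had the highest mean of Ldb2, Fezf2 and Bcl11b, but the means of Bcl11b in clusters 2 and 3 (960.2 ± 153 and 901 ± 30.7 CPM) did not differ beyond their spread.

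Receptors and ligands that steer axons split between the clusters. Netrins are secreted guidance cues read by Dcc and Unc5 receptors. Of 13 netrin pathway genes, 6 were higher in cluster 1 and 3 in cluster 2. The repulsive netrin receptor Unc5d was at 2989, 2893, 2599.8 and 3104 CPM in cluster 1 and at 241, 88.3, 163 and 106 CPM in cluster 2. Its fold change was 4.34 ± 0.35 (adjusted p = 0.00360), the largest toward cluster 1 among called, non-overlapping genes with at least 100 UMIs a sample. The size depended on the processing and ran from 4.14 to 7.18 over the main fit and its 11 alternatives. Unc5d was higher still in cluster 5 (7089 ± 540.4 CPM without scaling between clusters, against 3023 ± 270.4 in cluster 1). Neo1 (0.80), Dscam (1.08), Unc5b (1.62), Ntng2 (1.02) and Draxin (0.19) were also higher in cluster 1, and the netrin-G ligand gene Lrrc4c (-1.95 ± 0.08) and Ntn4 (-1.34) in cluster 2. Dcc, the attractive netrin receptor, was at 3588 ± 408 CPM and 3486 ± 420.2 CPM (SD, n = 4) and did not pass (0.04 ± 0.12).

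Slit proteins repel axons through Robo receptors, and here both ligands and receptors went in opposite directions. Slit2 was at 150.1 to 161 CPM in cluster 1 and 14.6 to 32.2 CPM in cluster 2 (2.80 ± 0.14). Slit1 was at 9.95 to 18.3 CPM in cluster 1 and 159 to 204 CPM in cluster 2 (-3.63 ± 0.11). Robo2 was at 4790.2, 5175, 5459.6 and 5371 CPM against 1958, 1469, 1424 and 1642 CPM (1.69 ± 0.13). Robo1 was at 1946 to 2589 CPM against 4735 to 4963 CPM (-1.13 ± 0.05). Neither the Slit nor the Robo values of the clusters overlapped. Of the 9 genes of this pathway tested, 2 were higher in cluster 1 and 6 in cluster 2.

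Of 27 semaphorin and plexin genes tested, 14 were higher in cluster 1 and 6 in cluster 2, against 14.9% and 17.0% of all genes. Sema5b (2.69 ± 0.08) and Sema3c (2.61 ± 0.09) encode ligands, and the receptor subunits Nrp1 (1.82) and Plxna4 (1.29) were higher in cluster 1 as well. Sema3e, the ligand of Plxnd1, was at 0.374 to 2.59 CPM in cluster 1 and 6.36 to 11.98 CPM in cluster 2 (-2.82 ± 0.27). Among 16 ephrin and Eph genes, 6 were higher in cluster 1 and 4 in cluster 2. Beside Ephb1, the ephrin ligand Efna5 was higher in cluster 2 (-1.98 ± 0.25), but without sample 2 or sample 4 its adjusted p was 0.0757 or 0.0748 at -1.94 or -1.99.

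Of 28 cell adhesion genes tested, 19 were higher in cluster 2 and 4 in cluster 1, against 17.0% and 14.9% of all genes. The contactin Cntn1 (-3.46 ± 0.08), the neural adhesion molecule Ncam2 (-2.97 ± 0.22) and Cntn3 (-2.65 ± 0.25) had the largest fold changes. Cntn2, another contactin, was higher in cluster 1 (1.76). Of 19 genes of mature neurons, 11 were higher in cluster 2 and 3 in cluster 1. The noncoding RNA Meg3 (-2.42 ± 0.07) and the NMDA receptor subunit gene Grin2b (-2.30 ± 0.05) were higher in cluster 2. The vesicular glutamate transporter gene Slc17a6 was higher in cluster 1, at 145 to 179 CPM against 18.5 to 28.5 CPM (2.85 ± 0.07). Of 15 genes of young neurons, 8 were higher in cluster 1, among them the migration GTPase Rnd2 (0.88 ± 0.08), and 2 in cluster 2. Some genes stand in 2 lists, so the counts of the lists are not independent. Unc5d and Sema3c, of the netrin and semaphorin lists, are also young neuron genes. Epha3 and Ephb1 of the Eph list are also callosal and subcerebral genes.

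**Figure D2:**
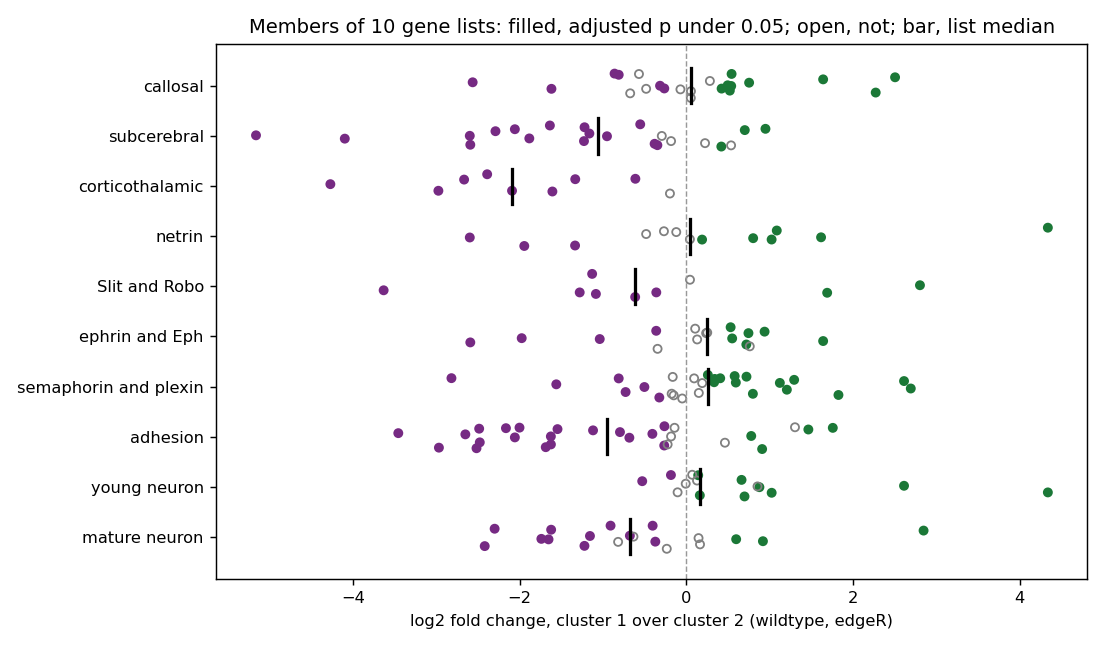
The log2 fold change of cluster 1 over cluster 2 (horizontal axis) for each tested member of 10 gene lists (rows), filled where the adjusted p was under 0.05 and open where not, with a bar at each list's median. The corticothalamic members lie on the cluster 2 side (median -2.09), as do most subcerebral members (median -1.06), while callosal and guidance genes spread to both sides.

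Called genes without overlap between the clusters and with at least 100 UMIs a sample in the higher cluster were ranked by size. The 8 with the largest fold changes in each direction are given. Toward cluster 2 these were Hs3st2, a second heparan sulfate 3-O-sulfotransferase gene (0.216 to 1.30 CPM in cluster 1, 54.0 to 84.6 CPM in cluster 2, -6.46 ± 0.16), Adamtsl1 (-5.17), Npr3, the sarcoglycan gene Sgcz (-4.94), Iqschfp (-4.86), the proprotein convertase gene Pcsk5 (-4.39), the axonal transport linker Sybu (-4.38) and Hs3st4. The reads of Iqschfp, a fusion locus, may be shared with the genes it spans, so its value is uncertain. Toward cluster 1 they were Unc5d, the procollagen protease Adamts2 (3.32), the TGF-beta binding protein Ltbp1 (3.25), the zinc finger factor Zfhx4 (2.88), Slc17a6, Slit2, the heparan sulfate sulfotransferase Ndst3 (2.79) and Sema5b. Most of these genes were not highest in the pair. Of the 8 toward cluster 2 only Iqschfp had its highest mean of the 7 clusters in cluster 2, and of the 8 toward cluster 1 only Adamts2 and Ndst3 had theirs in cluster 1. Without scaling between clusters, Hs3st2 was at 68.0 ± 12.8 CPM in cluster 2 and 85.6 ± 12.97 CPM in cluster 3, Sgcz at 463 ± 77.7 and 611 ± 58.1 CPM, Sybu at 850 ± 65.3 and 1638 ± 24.1 CPM, and Pcsk5 at 90.0 ± 22.7 and 258 ± 16.2 CPM. Adamtsl1 was at 138 ± 24.5 CPM in cluster 2, 241 ± 37.2 CPM in cluster 3 and 368 ± 61.3 CPM in cluster 7. Toward cluster 1, Ltbp1 was at 58.6 ± 7.83 CPM in cluster 1 and 459 ± 46.04 CPM in cluster 4, and Sema5b at 93.5 ± 8.37 and 759 ± 63.8 CPM. Slc17a6 was at 175 ± 18.97 CPM in cluster 1 and 533 ± 45.4 CPM in cluster 5, Zfhx4 at 95.3 ± 21.1 and 291 ± 31.9 CPM, and Slit2 at 161 ± 6.996 CPM in cluster 1 and 612 ± 45.3 CPM in cluster 6.

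No gene of the marker lists for other cells was at 0 in the clusters. None of 9 interneuron genes tested passed in edgeR (0 at an unadjusted p under 0.05), and their summed level was 64.9 to 93.0 CPM in cluster 1 and 61.1 to 74.1 CPM in cluster 2. For vascular, immune and blood genes the sums were 379.9 to 681 CPM and 317 to 636 CPM, with 2 of 9 called, the globins Hbb-bs (0.14) and Hba-a1 (0.23). Of 11 apical progenitor genes, Slc1a3 was higher in cluster 2 (37.8 to 60.8 CPM against 126 to 212 CPM, -1.72 ± 0.06) and Fabp7 in cluster 1 (0.15). Their part in the differences was not tested. For 6 genes of intermediate progenitors, the sums were 302 to 423 CPM and 246 to 297 CPM, and 4 were higher in cluster 1, led by Mfap4 (0.83 ± 0.14). Of 7 subplate genes, Nxph4 was higher in cluster 1 (1.43 ± 0.21) and Nxph3 in cluster 2 (-1.02). Of 5 striatal genes, Ebf1 was higher in cluster 1 (1.07) and Foxp1 (-1.33 ± 0.05) and Drd1 (-2.55) in cluster 2. Both Cajal-Retzius genes tested, Cacna2d2 (-1.04 ± 0.21) and Reln (-0.79), were higher in cluster 2.

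A sum cannot tell fewer nuclei with a transcript from less transcript in each. Detection per nucleus was therefore read after every nucleus had been thinned to 1400 UMIs, which left out no nucleus of either cluster. Bcl11b was detected in 35.6 to 45.4% of cluster 1 nuclei and 49.8 to 65.7% of cluster 2 nuclei over the 4 samples. In cluster 4, which had the most of the apical progenitor gene Slc1a3 (843 ± 55.4 CPM) and served as the background for the subcerebral genes, it was detected in 15.2 to 28.0% of nuclei at median depths of 2652 to 3113 UMIs before thinning. The shares of Bcl11b in both clusters lay above that background. Not thinned, they were 50.4 to 60.8% in cluster 1, 64.1 to 79.2% in cluster 2 and 27.3 to 45.5% in cluster 4. Ldb2 separated the clusters more, with 23.8 to 28.4% against 76.1 to 81.5% (cluster 4, 9.91 to 13.3%; not thinned, 31.2 to 37.1, 87.7 to 93.2 and 17.2 to 20.3%). Fezf2 was detected in 14.8 to 19.1% of cluster 2 nuclei, above the 6.35 to 7.36% of cluster 4. Its 5.34 to 7.27% in cluster 1 reached no further than cluster 4. Not thinned, Fezf2 was detected in 28.2 to 37.6% of cluster 2, 12.7 to 15.502% of cluster 4 and 9.41 to 13.6% of cluster 1 nuclei. Cluster 4 was not free of Fezf2, at 49.8 ± 3.10 CPM without scaling between clusters, against 40.8 ± 4.03 CPM in cluster 6. Cluster 1 was at 48.0 ± 7.75 CPM, so these shares do not show that it lacks Fezf2.

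For the upper-layer genes cluster 3, with the high corticothalamic gene Hs3st4 and median depths of 2926 to 3211 UMIs, served as the background. Cux2 was detected in 51.1 to 60.5% of cluster 1 and 11.8 to 16.1% of cluster 2 nuclei, against 6.37 to 10.2% in cluster 3 (not thinned, 62.9 to 72.8, 20.9 to 25.96 and 13.8 to 20.3%). Cux1 was detected in 45.7 to 54.4% and 9.04 to 14.3%, against 5.26 to 7.13% (not thinned, 57.2 to 66.6, 15.53 to 23.1 and 12.8 to 14.9%). In cluster 4 Cux1 was detected in 43.96 to 46.3% of nuclei, a range that overlapped that of cluster 1 (not thinned, 65.7 to 70.6%). The cluster 2 shares of both genes thus lay above those of cluster 3, but not by much. Unc5d was detected in 64.4 to 72.2% of cluster 1 and 7.42 to 9.95% of cluster 2 nuclei, the latter overlapping the 5.13 to 8.65% of cluster 3 (not thinned, 72.2 to 78.1, 12.7 to 17.3 and 10.9 to 15.1%). Dcc, whose sums did not pass, was detected in 80.1 to 85.6% and 75.7 to 87.4% of nuclei of clusters 1 and 2.

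Genes of the callosal and subcerebral lists were also read in the same nuclei. Cux2 and Bcl11b were seen together in 220 of 1189, 411 of 2028, 273 of 1748 and 532 of 2284 nuclei of cluster 1 in samples 1 to 4, and in 94 of 1668, 94 of 1281, 88 of 1427 and 70 of 1349 nuclei of cluster 2. The share of nuclei with both was set against the product of the separate shares, where values under 1 mean fewer nuclei with both than the product gives, and no test was run on these ratios. The ratio was 0.923, 0.864, 0.848 and 0.906 in cluster 1 and 0.704, 0.948, 0.791 and 0.613 in cluster 2. All 8 values lay under 1, and those of cluster 2 spread more widely and overlapped those of cluster 1. In cluster 3 the ratio was 0.883 to 1.05 and in cluster 4 0.869 to 1.34. Cux1 with Fezf2 gave 0.326 to 0.851 in cluster 2, but on only 6 to 21 nuclei a sample, and 0.678 to 0.850 in cluster 1 on 22 to 54 nuclei. Bcl11b with Fezf2, both of the subcerebral list, had 1.08 to 1.24 in cluster 2 and 0.968 to 1.23 in cluster 1, where 1 sample lay under 1, and Cux1 with Cux2, both of the callosal list, 2.07 to 2.67 in cluster 2 and 1.19 to 1.31 in cluster 1. Cux1 with Ldb2 stood nearer to 1 in cluster 2, at 0.797 to 0.990. Cux2 with Fezf2 gave 0.418 to 0.982 in cluster 2 and 0.745 to 0.963 in cluster 1, and Cux2 with Ldb2 0.854 to 0.967 and 0.859 to 1.03. All nuclei were used, whatever their doublet score. The part of doublets, or of RNA from outside the nucleus, in the nuclei with both genes was not tested.

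Promoter sequence was read for the named genes with an entry in the RefSeq promoter table (build GRCm38.p6), 64 of 84. Searched on both strands of the 250 bases before the start site were AACAAT (reverse complement ATTGTT), the core bound by SOX factors such as Sox5, and CAGATG (reverse complement CATCTG), an E-box bound by neurogenic bHLH factors. AACAAT was in 9.62% of all promoters of the table, 5.74% of those of genes higher in cluster 1 and 5.05% of those of genes higher in cluster 2, with 5.02% among genes that did not pass. CAGATG was in 14.5, 8.93, 10.0 and 9.63% of the same sets. Of the 64 named genes, 4 held AACAAT (6.25%): Ephb1, Lix1, Kcnip4 and Elavl4, the last of which was higher in cluster 1 (0.32). CAGATG was held by 5 (7.81%): Igfbp4, Diaph3, Lrrc4c, Sema3c and Kcnip4. The sequences of 4 genes that hold a match are shown, 1 of the genes higher in cluster 1 (Sema3c), 1 with the largest interaction with genotype described further on (Kcnip4) and 2 higher in cluster 2 (Ephb1 and Lix1). They run 5′ to 3′ on the gene's strand with the matches in capitals, and a match is a description of letters, not a bound site.
Sema3c (chr5:17574566-17574815, plus strand): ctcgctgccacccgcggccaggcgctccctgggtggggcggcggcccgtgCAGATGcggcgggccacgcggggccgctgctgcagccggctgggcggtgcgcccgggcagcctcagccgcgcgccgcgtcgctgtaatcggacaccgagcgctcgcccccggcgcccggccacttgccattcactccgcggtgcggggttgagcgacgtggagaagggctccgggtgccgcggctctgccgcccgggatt
Kcnip4 (chr5:49285660-49285909, minus strand): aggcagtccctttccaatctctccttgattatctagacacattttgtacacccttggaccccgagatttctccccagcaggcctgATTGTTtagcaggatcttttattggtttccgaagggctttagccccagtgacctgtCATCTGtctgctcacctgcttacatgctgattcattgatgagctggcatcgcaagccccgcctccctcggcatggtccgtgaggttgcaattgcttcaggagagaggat
Ephb1 (chr9:102354694-102354943, minus strand): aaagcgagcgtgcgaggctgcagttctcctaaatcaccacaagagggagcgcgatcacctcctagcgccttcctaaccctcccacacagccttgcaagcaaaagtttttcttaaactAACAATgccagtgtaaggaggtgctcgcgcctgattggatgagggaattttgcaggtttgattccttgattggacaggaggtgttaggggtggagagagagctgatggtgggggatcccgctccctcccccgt
Lix1 (chr17:17402436-17402685, plus strand): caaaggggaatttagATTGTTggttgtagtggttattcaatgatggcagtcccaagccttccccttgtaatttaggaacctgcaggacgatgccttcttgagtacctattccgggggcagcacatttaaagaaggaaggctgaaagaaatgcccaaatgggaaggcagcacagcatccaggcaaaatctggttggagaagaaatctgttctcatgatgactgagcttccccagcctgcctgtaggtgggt

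The same cluster numbers are used in the knockout samples, which hold 7355 nuclei of cluster 1 and 5954 of cluster 2, and whether the contrast between clusters was the same there was tested with the interaction of cluster and genotype. Pantr2 itself was not analysed here. Median UMIs in knockout samples 1 to 4 were 2288, 2633, 2457 and 2349 in cluster 1 and 2334.5, 2970, 2895 and 2494 in cluster 2. Within each knockout sample cluster 1 was thus the shallower one, as in wildtype, although the ranges over samples overlapped, unlike those of wildtype. No interaction was fitted at equal depth or at low doublet scores, so the part of depth was not tested. Of 12403 genes, 394 passed in edgeR (3.18%; in 1.94% the log2 ratio of cluster 1 over cluster 2 was higher in knockout and in 1.24% lower). With limma on the same sums none passed (smallest adjusted p 0.0609, with 1434 genes at an unadjusted p under 0.05), so each gene below is lost under limma. In the subcerebral list 6 of 23 tested genes passed, and in the callosal list 2 of 22. Sox5 had log2 ratios of -1.96, -1.62, -2.07 and -1.89 in the wildtype and -1.24, -1.36, -1.33 and -1.54 in the knockout samples (interaction 0.52 ± 0.08, adjusted p = 0.000854). The knockout ratios were closer to 0 and did not overlap. Without scaling between clusters, Sox5 was at 1377 ± 168 and 4653 ± 423 CPM in clusters 1 and 2 of wildtype and 2973 ± 482 and 7099 ± 689 CPM in knockout. Oma1 (1.07 ± 0.10), Diaph3 (0.87 ± 0.13), Rorb (0.50 ± 0.07) and Cdh13 (0.29 ± 0.06) also had smaller differences between clusters in knockout, as did Fezf2 (0.33 ± 0.08), whose adjusted p was 0.0573 to 0.0808 without wildtype 2 or 4 or knockout 2 or 3.

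The largest interactions were those of the potassium channel partner Kcnip4 (3.00 ± 0.47), the kinesin family member Kif26b (2.66 ± 0.48) and the protocadherin Pcdh7 (2.23 ± 0.30) toward a higher ratio in knockout. Among those with a lower ratio in knockout were the Ras exchange factor Rasgrf1 (-1.44 ± 0.23) and Lypd6 (-1.39 ± 0.24). For Kcnip4 the log2 ratios were -1.53, -1.61, -0.59 and -2.32 in wildtype and 0.80, 1.23, 2.33 and 1.36 in knockout, so that every wildtype sample was higher in cluster 2 and every knockout sample higher in cluster 1. In cluster 2 its level was 331 ± 169 CPM in wildtype and 28.8 ± 10.1 CPM in knockout. Kif26b was at 125 ± 59.0 and 11.6 ± 6.47 CPM there. Pcdh7 had ratios of -1.22, -0.47, -0.71 and -1.06 in wildtype and 1.47, 1.54, 1.83 and 0.64 in knockout. Its level was 982 ± 233 and 256 ± 83.6 CPM in cluster 2 of wildtype and knockout, and 576 ± 26.9 and 685 ± 42.8 CPM in cluster 1. Outside the pair, mean levels of Kcnip4 were lower in knockout in clusters 4 (357 ± 41.8 and 176 ± 26.0 CPM), 5 (268 ± 30.8 and 174 ± 51.6 CPM) and 6 (988 ± 290.4 and 634 ± 242 CPM), and not in cluster 3 (834 ± 192 and 932 ± 201 CPM) or cluster 7 (84.1 ± 44.7 and 98.7 ± 26.1 CPM). Pcdh7 had lower means in knockout in clusters 3 (1001 ± 30.2 and 775 ± 44.3 CPM) and 6 (795 ± 63.6 and 584 ± 93.5 CPM) too. Differences in the other clusters were not tested. Rasgrf1 had ratios of -0.997, -2.29, -1.95 and -2.02 in wildtype and -3.14, -3.63, -2.99 and -3.29 in knockout, all below the wildtype values. It was at 31.1 ± 7.15 CPM in wildtype and 53.6 ± 6.75 CPM in knockout cluster 2. Lypd6 was higher in cluster 1 in all wildtype samples (1.02, 0.23, 0.79 and 1.04) and higher in cluster 2 in all knockout samples (-0.42, -0.93, -0.62 and -0.14).

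The adjusted p of Kcnip4 was 0.0571 to 0.100 without any one of the libraries wildtype 1, wildtype 2 and knockout 1 to 4, that of Kif26b 0.0968 to 0.131 without any library but wildtype 3, that of Pcdh7 0.0586 without wildtype 4 or knockout 2 (0.0593 at most), and that of Lypd6 0.0717 to 0.117 without wildtype 1, 3 or 4 or knockout 1 or 3. Oma1, of the subcerebral list, had ratios of -1.21, -1.05, -1.22 and -1.39 in wildtype and -0.31, -0.0069, 0.068 and -0.46 in knockout, without overlap. Diaph3 had -0.81, -0.63, -1.14 and -1.08 against 0.021, 0.11, -0.23 and -0.15, so that its clusters lay close together in knockout. Rorb had -2.48 to -2.72 in wildtype and -2.02 to -2.15 in knockout. Crim1, the corticospinal marker that was higher in cluster 1, had 0.13, 0.53, 0.55 and 0.43 against 1.24, 1.59, 1.48 and 0.89. In cluster 2 it was at 118 ± 13.9 CPM in wildtype and 67.7 ± 19.1 CPM in knockout, and in cluster 1 at 154 to 209 CPM and 165 to 187 CPM. The cluster numbers were assigned from the same expression data, so a change of a gene within the nuclei of a cluster and a change in which nuclei received its number cannot be told apart.

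**Figure D3:**
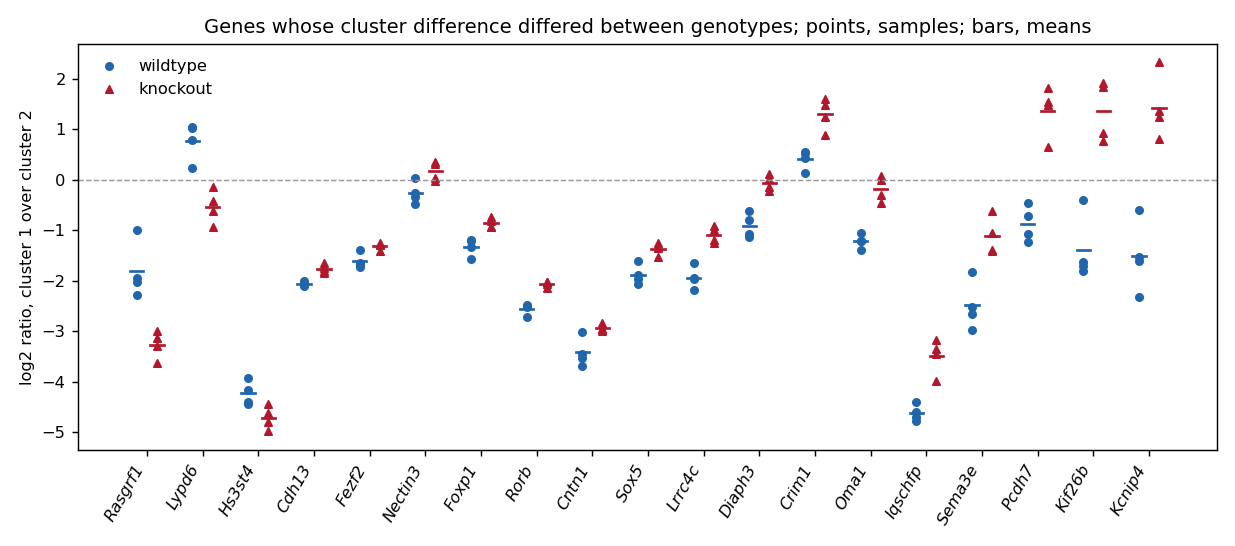
The log2 ratio of cluster 1 over cluster 2 (vertical axis) in each sample for the 19 named genes with an interaction (circles, 4 wildtype; triangles, 4 knockout; bars, means). Kcnip4, Kif26b and Pcdh7 lie below 0 in the wildtype samples and above 0 in the knockout samples, and the ratios of Sox5, Rorb and Cdh13 lie closer to 0 in knockout.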

How the data were processed

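Single-nucleus RNA-seq libraries (10x Genomics 3′ version 2 chemistry) came from 4 wildtype and 4 Pantr2 knockout samples. Per the labels' processing notes the authors used kallisto, bustools and mm10, whose roles and versions are not given in the sources used here. The deposited matrices hold UMI counts per gene and nucleus, and the deposited cell tables give the total UMI count, a doublet score, the cluster and group numbers and a cell cycle angle. Medians of the deposited doublet score ran from 0.0620 to 0.216 over samples and clusters. No doublet caller was run, and no nucleus was removed for the main fits. The members and gene lists were chosen with earlier results of these data known.

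UMIs were summed per sample and cluster and fitted in edgeR 4.0.16 (R 4.3.3) with trimmed-mean factors, filterByExpr and robust quasi-likelihood, the sample as a block, because both sums of a sample come from its own nuclei, and Benjamini-Hochberg adjustment over all genes tested. limma 3.58.1 and DESeq2 1.42.0 served as alternatives. Tested on simulated data with 200 genes changed by 1 on the log2 scale, the cluster fit recovered 90.5% (12171 genes) and the interaction fit 74% (12403 genes). False calls among the unchanged genes numbered 16 in the cluster fit and 14 in the interaction fit. In the simulated data only the 200 changed genes differed between sums, whereas 3881 genes differed between the clusters in the real data. The interaction simulation held no other difference between clusters. These numbers therefore do not give the error rate of the fits on the real data. Detection used nuclei thinned to 1400 UMIs. Named were all genes of the callosal and subcerebral lists with 10 UMIs a sample or more. From every other list came the 3 largest called fold changes (30 UMIs or more, no overlap). Over all genes the 8 largest called fold changes in each direction were taken (100 UMIs or more, no overlap). Genes with an interaction were named too, plus the 3 largest of these in each direction. Pairs of genes read in the same nuclei and other genes named were picked after their values were seen. Some items are not reported here.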

Additional observations from a re-analysis of the deposited data

Results flagged for a closer look

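Values that stood apart in 1 of 4 wildtype samples were looked for in 119 groups of values, of which chance gives about 1 in 20. There were 5. Igfbp4 in cluster 2 was at 12.7 CPM in sample 2, with a median of 5.51 CPM over the 4 samples. Dkk3 in cluster 1 was at 1.95 CPM in sample 1 (median 4.49). Sox5 in cluster 2 was at 5619 CPM in sample 3 (median 4663), Crim1 in cluster 1 at 205 CPM in sample 3 (median 154), and Sema5b in cluster 2 at 11.7 CPM in sample 3 (median 14.4).

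The difference between clusters differed between genotypes, by the interaction test, for 19 named genes. The log2 ratio of cluster 1 over cluster 2 was higher in knockout for Kcnip4 (3.00), Kif26b (2.66), Pcdh7 (2.23), Sema3e (1.57), Iqschfp (1.26), Oma1 (1.07), Crim1 (0.89), Diaph3 (0.87), Lrrc4c (0.84), Sox5 (0.52), Cntn1 (0.51), Rorb (0.50), Foxp1 (0.46), Nectin3 (0.44), Fezf2 (0.33) and Cdh13 (0.29). It was lower in knockout for Rasgrf1 (-1.44), Lypd6 (-1.39) and Hs3st4 (-0.49). Leaving out 1 library ended the call of 9 of these: beside Kcnip4, Kif26b, Pcdh7, Lypd6 and Fezf2, it was Sema3e without wildtype 2 or 4 or knockout 2 (adjusted p 0.0633 to 0.160), Nectin3 without wildtype 4 or knockout 3 or 4 (0.0606 to 0.0919), Hs3st4 without wildtype 4 or knockout 2, 3 or 4 (0.0622 to 0.160) and Crim1 without wildtype 2, 3 or 4 or knockout 1 or 3 (0.0753 to 0.140).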

How the results depend on the processing

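The number of genes that differed between the clusters (3881) was 2542 after thinning to equal depth and nuclei and 2029 in DESeq2, where 2017 were shared with the edgeR calls. Without the sample as a block (no replicate block) it was 2789, and leaving out 1 sample gave 3035 to 3500. Of the 79 genes named for the cluster contrast, tested in 8 to 11 alternatives each (all 11 for 67 of them), 2 uncalled ones changed sign: Lamp5 without sample 4 (-0.075, up to 0.12 without sample 3) and Cntn6 in nuclei with low doublet scores (0.087). The calls of Nectin3, Ski, Ptn, Plxnd1, S100a10 and Etv1 were lost without the block (adjusted p 0.0688 to 0.352), those of Nectin3, Plxnd1, S100a10, Etv1 and Tle3 after thinning (0.0529 to 0.305), those of Nectin3, S100a10 and Etv1 at low doublet scores (0.246 to 0.517), and those of Nectin3, Plxnd1, S100a10 and Etv1 in DESeq2 (0.120 to 0.387). Uncalled, Lmo4 passed after thinning and at low doublet scores, and Dkk3 after thinning. Sizes moved as well. Over the main fit and all 11 alternatives the fold change ran from 2.12 to 3.60 for Cux1, 2.42 to 3.18 for Cux2 and 4.14 to 7.18 for Unc5d. Interactions (394) fell to 0 in limma without a block (smallest adjusted p 0.0609, 1434 genes at an unadjusted p under 0.05) and with a replicate block over the sample numbers (0; 0.0641, 1384 genes), were 552 in edgeR with that block, and ranged from 253 (without wildtype 4) to 455 (without wildtype 3) when 1 library was left out. Same-numbered samples had correlations of 0.019 to 0.034 in their deviations. Yet sample 1 had the lowest share of cluster 1 in both genotypes (41.6% in wildtype, 45.5% in knockout). Its median doublet score in cluster 1 was also the lowest in both (0.0620 and 0.0628). These values do not settle whether the numbers pair the samples. The causes were not tested. The ratio of observed to product share of Cux2 with Bcl11b in cluster 2, 0.764 on average, was 0.871 without thinning, 0.727 at 1000 UMIs and 0.703 to 0.815 with 1 sample left out. The share of cluster 1 was 55.2% on average. Shallow sums limit genes with few UMIs.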

Other observations

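Gene lengths were matched by symbol to the RefSeq gene table (GRCm38.p6) for 97.6% of the genes higher in cluster 1, 96.1% of those higher in cluster 2 and 96.3% of the rest. The median was 52.5 kb for genes higher in cluster 1, 74.9 kb for genes higher in cluster 2 and 21.7 kb for genes that did not pass. The median UMI total over both clusters was 1935.5, 1127 and 652 in the same order. Oma1 was at 158 ± 7.91 CPM (SD, n = 4) in cluster 2 and 74.3 ± 6.29 CPM in cluster 1 of wildtype, and at most 25.9 ± 5.15 CPM in any of the other 5 clusters. In knockout it was at 54.7 ± 9.38 CPM in cluster 2 and 51.6 ± 5.94 CPM in cluster 1. Diaph3 was at 72.9 ± 20.5 CPM in wildtype cluster 2 and 593 ± 21.0 CPM in cluster 4.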
